A study of Bos taurus with 6 samples.

Results

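The nuclear genes for subunits of the oxidative phosphorylation complexes were examined in intramuscular fat (IMF) of steers and bulls. The members were the rows of the mRNA count table whose symbols carry the prefixes of complex I (NDUFA, NDUFB, NDUFC, NDUFS and NDUFV, without the NDUFAF assembly factors), complex III (UQCR, and CYC1), complex IV (COX4, COX5, COX6, COX7A2, COX7B, COX7C and COX8) and complex V (ATP5). This gave 74 of the 25444 genes of the table, with 34 in complex I, 9 in complex III, 14 in complex IV and 17 in complex V. All 74 had counts in both libraries, and 70 of them had at least 100 counts over the 2 libraries. The other 4 were NDUFB1, NDUFC1, COX6A2 and COX6B2.

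The respiratory chain sits in the inner mitochondrial membrane. Complex I takes electrons from NADH, complex III passes them on to cytochrome c and complex IV hands them to oxygen, while complex V, the ATP synthase, uses the resulting proton gradient to make ATP. In white fat this capacity is modest compared with oxidative muscle, but adipocytes depend on their mitochondria for ATP. Most subunits are encoded in the nucleus. For those encoded by mitochondrial DNA, 0 of the 26 symbols looked up were among the genes counted, so they could not be analysed here.

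The animals were male Chinese Qinchuan cattle slaughtered at 24 months of age. The steers (CM) had been castrated at 6 months and the bulls (IM) were intact, and both were kept on the same diet. Per the study, all were offspring of a single sire. IMF was dissected from the sternomandibularis muscle. Each group is 1 mRNA library of pooled RNA, from 6 animals by the series' design text and from 3 by the sample labels. The libraries held 12677375 counts for steers and 9868415 for bulls. A spread between replicates could not be had from 1 pool per group. The tests and 95% intervals therefore cover counting error in these 2 libraries only, and say nothing of the spread between animals. Fewer cells of a type and less RNA per cell cannot be told apart in such bulk tissue.

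The markers of the dissected tissue differed between the libraries. Adipocyte transcripts were present in both, with 19 of 20 listed genes counted. They took 0.717% of the steers' counts and 0.664% of the bulls'. In log2 fold change 11 of them were above 0 and 8 below, from FABP4 at -1.06 to CIDEA at 2.75. DGAT2 alone had 23283 counts in steers against 8528 in bulls, so that the summed share does not give the direction of the list. The 20 skeletal muscle genes counted of 22 listed took 0.337% in steers and 0.637% in bulls, 14 of them below 0 in log2 fold change. For T lymphocytes the 14 listed genes had 165 counts in steers against 1244 in bulls, and the 12 myeloid genes counted took 0.264% and 0.868%. Fibroblast and matrix genes took 15.1% in steers and 9.25% in bulls. The 9 brown and beige fat genes counted of 11 listed had 1335 counts in steers against 449 in bulls. Of these CIDEA, a lipid droplet gene that is also in the adipocyte list, had 998 against 136 and was called higher at 2.75. PRDM16, a regulator of brown fat identity, had 13 against 44 and was called lower at -1.88, and the defining marker UCP1 had 2 against 0. The part of these cell types in the subunit values below was not tested.

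Across all 74 members, the mRNAs were modestly more abundant in steers. Counts were scaled by median-of-ratios size factors, so that a value of 0 on the log2 scale means a level that matches the typical gene. On that scale 61 members lay above 0 and 13 below, that is 82.4% above 0 compared with 50.7% of the 17752 genes tested. The median log2 ratio of steers over bulls was 0.33 (quartiles 0.14 and 0.47), while the median of all genes tested was 0.011 and that of the genes with at least 100 counts was 0.041. Summed over the members, steers had 65757 counts and bulls 47748, a log2 ratio of 0.34 (interval 0.32 to 0.36). The same ratio summed over all genes tested was 0.24. As a share of all counts the members took 0.519% in steers and 0.484% in bulls. Of the 74 members 70 had a log2 fold change between -1 and 1, and 57 of these lay between 0 and 1.

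An exact binomial test (two-sided) of each gene's pair of counts, with Benjamini-Hochberg adjustment over all genes tested, was used at an adjusted p under 0.05. At any fold, 44 members were higher in steers (59.5%) and 3 were lower, and 27 passed in neither direction. The background was 19.9% of all genes tested for higher and 18.3% for lower. Since deeply counted genes pass this test more easily, the same count was taken among genes with at least 100 counts, where 43 of 70 members (61.4%) and 29.3% of all such genes were higher. With the further requirement of a change over 2-fold, 3 members were called higher, NDUFA4L2, COX7C and COX6B2, and 0 lower. That is 4.05% of the members, close to the 4.37% of all genes called higher, and 8.13% of all genes were called lower. Scaling by total counts moved all genes down by 0.24 on the log2 scale. On that scale 47 members were above 0, where 35.8% of all genes were, and the median of the members was 0.088 compared with -0.23 for all genes. At any fold 20 members were then higher (27.0%) and 7 lower (9.46%), where 10.5% of all genes were higher and 30.2% lower. Under median-of-ratios scaling and a threshold of 1.5-fold, 8 members were higher (10.8%) and 1 was lower (1.35%), against 9.31% and 12.2% of all genes. Were the pools to differ by a biological coefficient of variation of 0.2, edgeR's exact test would leave 2 members higher at any fold, COX7C and NDUFA4L2, and 0 lower. That is 2.70% of the members higher, near the 2.07% of all genes, and 4.29% of all genes would be lower. At an assumed 0.4 the same test would leave 0 members in either direction, with 0.293% of all genes higher and 0.524% lower. Without adjustment, 4 members had p under 0.05 at 0.2 and 2 at 0.4 in edgeR's exact test. The share of all genes at that unadjusted threshold was not taken, so nothing is read from these counts.

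**Figure D1:**
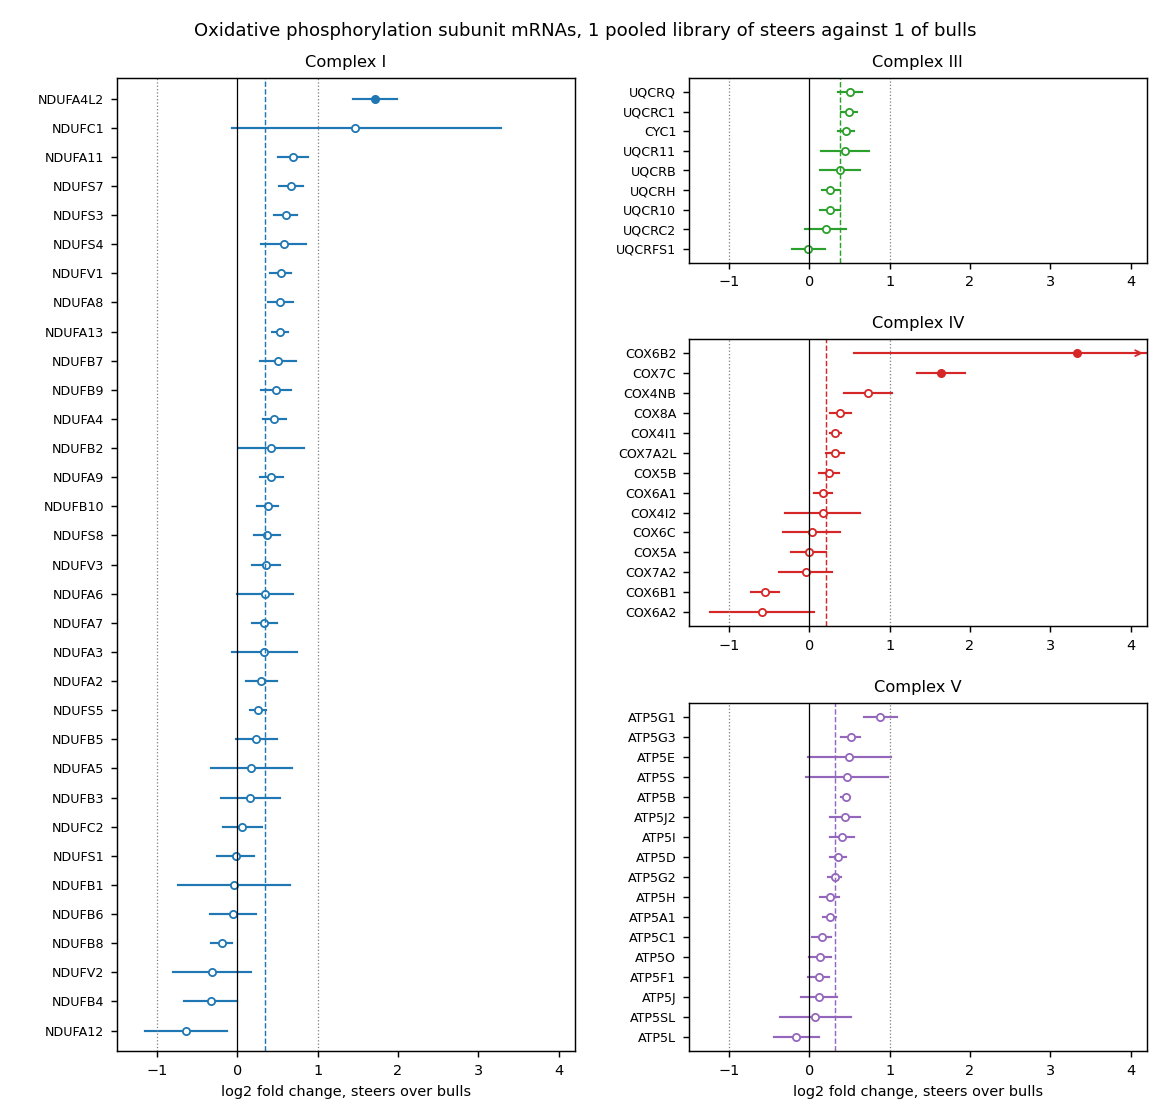
Log2 fold change of the subunit genes in steers over bulls, by complex, with 95% Clopper-Pearson intervals for counting error. Filled points are called at over 2-fold (dotted lines at 1 and -1), the dashed line is the median of the complex, and the interval of COX6B2 runs off the axis to 8.76. Most points sit between 0 and 1.

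**Figure D2:**
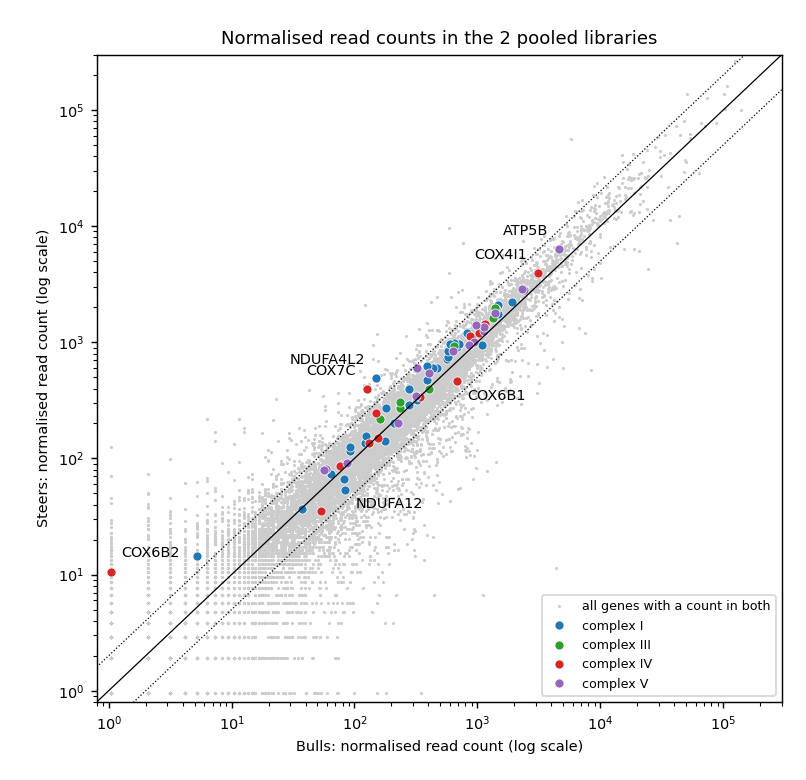
Normalised read counts in the pooled library of bulls (x axis) and of steers (y axis), both on log scales, with genes counted in both libraries in grey and the subunit genes in colour by complex. The solid line marks equal levels and the dotted lines 2-fold differences, and only NDUFA4L2, COX7C, COX6B2 and NDUFC1 lie beyond them.

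Complex I is the largest of the complexes and the entry point for electrons from NADH. Of its 34 members 27 were above 0, 19 were higher at any fold and 2 were lower, NDUFA12 and NDUFB8. Of all genes tested 50.7% were above 0, 19.9% were higher and 18.3% lower. Among genes with at least 100 counts 29.3% were higher. The same shares stand beside the counts of the modules below. The median log2 fold change was 0.35, and the summed counts were 21847 in steers and 15522 in bulls, a log2 ratio of 0.37 (interval 0.34 to 0.40).

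The Q module, which passes electrons to ubiquinone, had all 5 of its members above 0 and 4 of them higher. NDUFS7, an iron-sulphur subunit at the end of the electron path, had 1000 counts in steers against 578 in bulls, a log2 ratio of 0.67 (interval 0.52 to 0.82). NDUFS3 had 1022 against 619 counts and a log2 ratio of 0.60 (0.46 to 0.75). NDUFS8, another iron-sulphur subunit, was at 0.37 with 782 and 556 counts. NDUFA5, an accessory subunit, had 76 and 62 counts and an interval of -0.33 to 0.68.

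The N module oxidises NADH, and its members were spread more widely. NDUFV1, which binds NADH and flavin, had 1260 counts in steers against 796 in bulls and a log2 ratio of 0.54 (interval 0.41 to 0.67). Its partner NDUFV2 had 69 and 79 counts and a value of -0.32, with an interval of -0.80 to 0.17 that holds 0. NDUFS1, the large iron-sulphur subunit of the same module, had 332 against 310 counts and a log2 ratio of -0.023 (-0.25 to 0.20). The electron input subunits therefore did not share a value, although the intervals of NDUFV2 and NDUFS1 overlap. NDUFA12, an accessory subunit that joins late in assembly, was lower in steers, with 56 and 80 counts, a log2 ratio of -0.64 (-1.16 to -0.13) and an adjusted p of 0.0369 in the exact binomial test. Of the 8 members of this module 5 were higher and 1 was lower.

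In the membrane arm, which pumps protons, the part near the Q module had higher values than the far end. The proximal part had a median log2 fold change of 0.53 over 7 members, all of them above 0, and the distal part one of 0.20 over 10 members, 4 of them below 0. With summed counts the proximal part stood at 0.43 (interval 0.37 to 0.48) and the distal part at 0.17 (0.11 to 0.24). These intervals do not overlap, but they cover counting error alone and the difference was not tested over animals. Under total counts the distal median was -0.042. On the main scale the summed counts of all genes tested stood at 0.24, above the distal part. In the proximal part NDUFA11 had 657 counts in steers against 373 in bulls, a log2 ratio of 0.69 (0.51 to 0.88), and NDUFA13 had 2201 and 1403 counts and one of 0.53 (0.43 to 0.63). NDUFC1 had only 15 and 5 counts, and its value of 1.46 had an interval of -0.070 to 3.28. In the distal part NDUFB8 was lower in steers, with 987 and 1040 counts and a log2 ratio of -0.20 (-0.32 to -0.071), while NDUFB9 was higher at 0.48 with 628 and 414 counts. NDUFB4, with 146 and 169 counts, was at -0.33 (-0.66 to -0.0051) and did not pass.

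NDUFA4L2 had the highest value of all members with at least 100 counts. This paralogue of NDUFA4 is known as a gene induced by low oxygen and is not a regular subunit. It had 512 counts in steers against 144 in bulls, a log2 ratio of 1.71 (interval 1.44 to 1.98, adjusted p = 2.85e-41 from the exact binomial test). NDUFA4 itself, which is now placed in complex IV, had 1010 against 674 counts and a log2 ratio of 0.46 (0.32 to 0.60). NDUFA4L2 thus took 33.6% of the counts of the pair in steers (exact binomial interval 31.3 to 36.1) and 17.6% in bulls (15.1 to 20.4). Counts are not adjusted for transcript length, so these shares compare the libraries and not the genes.

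Complex III was the most even of the complexes. Of its 9 members 8 were above 0, 7 were higher and 0 were lower, and the log2 fold changes ran from -0.014 to 0.51 with a median of 0.38. Of all genes tested 19.9% were higher and 18.3% lower, and 29.3% of those with at least 100 counts were higher. The summed counts were 9087 in steers and 6464 in bulls, a log2 ratio of 0.37 (interval 0.32 to 0.42). Among the catalytic subunits, CYC1, the cytochrome c1 that passes electrons on to cytochrome c, had 2018 against 1355 counts and a log2 ratio of 0.45 (0.35 to 0.55). UQCRFS1, the Rieske iron-sulphur protein, stood apart with 414 and 384 counts and a value of -0.014 (-0.22 to 0.19). UQCRC1, a core protein facing the matrix, had 2049 and 1336 counts and was at 0.49 (0.39 to 0.60), and its companion UQCRC2 had 284 and 227 counts and was at 0.20 (-0.056 to 0.46). The highest value of the complex was that of the small subunit UQCRQ at 0.51 with 964 and 623 counts. The other small subunits UQCR10, UQCRH, UQCRB and UQCR11 lay between 0.26 and 0.44 and all passed at any fold.

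Complex IV had the lowest median and the widest range, which rests on COX6B2 with 11 counts against 1. Among members with at least 100 counts it ran from -0.56 to 1.64, and complex I ran wider, from -0.64 to 1.71. The median log2 fold change of the 14 members of complex IV was 0.21. It was -0.034 when libraries were scaled by total counts, on which scale 7 members were above 0 and 7 below. At any fold 8 members were higher and 1 was lower, where 19.9% of all genes tested were higher and 18.3% lower. Among genes with at least 100 counts 29.3% were higher. With total counts 3 members were higher and 2 lower, where 10.5% and 30.2% of all genes were. The summed counts were 11275 in steers and 8637 in bulls, a log2 ratio of 0.26 (interval 0.22 to 0.30). This interval holds the 0.24 of the summed counts of all genes tested. One of the 14, COX4NB, carries an older symbol of EMC8, a gene of the endoplasmic reticulum membrane complex, and is no subunit. It had 258 against 143 counts and a log2 ratio of 0.73 (0.43 to 1.03), and is among the 8 that were higher. Without it the median of complex IV was 0.17.

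COX7C, a small structural subunit, was called higher in steers. It had 410 counts in steers against 121 in bulls, a log2 ratio of 1.64 (interval 1.34 to 1.94, adjusted p = 2.79e-31 from the exact binomial test). No other regular subunit among the complex IV members came near that value, since COX8A followed at 0.38 (0.25 to 0.51) with 1175 and 828 counts. NDUFA4, counted here with complex I, was at 0.46. COX4I1, a regulatory subunit and the complex IV member with the most counts, had 4085 against 3002 counts and a log2 ratio of 0.32 (0.25 to 0.39). COX5B, with 1262 and 981 counts, was at 0.24. COX5A, which is built into the same enzyme, had 351 and 325 counts and was at -0.011 (-0.23 to 0.21).

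COX6B1, which helps to hold the enzyme's dimer together, went the other way. It had 480 counts in steers against 649 in bulls, a log2 ratio of -0.56 (interval -0.73 to -0.38, adjusted p = 1.09e-09 from the exact binomial test), which is the lowest value among members with at least 100 counts apart from NDUFA12. COX7A2 and COX6C were close to 0, at -0.047 (-0.38 to 0.28) and 0.029 (-0.33 to 0.39), with 158 and 150 and with 141 and 127 counts. Subunits that are present in equal numbers in the enzyme thus differed in direction at the mRNA level. How the counting treated reads that match several places is not given in the sources used here, and many subunit genes have processed copies in the genome. The count table itself holds 2 rows, COXP1 and COX7ALP1, that RefSeq lists as pseudogenes, and COXP1 had 3532 against 2714 counts and a log2 ratio of 0.26. The values of COX7C and COX6B1 are uncertain in that respect.

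Several complex IV subunits come as tissue forms, and the less common forms were scarce in both libraries. COX6A2, the heart and muscle form, had 37 counts in steers against 51 in bulls, a log2 ratio of -0.59 (interval -1.24 to 0.054). The general form COX6A1 had 1326 and 1083 counts and was at 0.17 (0.053 to 0.29). COX6A2 thus took 2.71% of the pair's counts in steers (interval 1.92 to 3.72) and 4.50% in bulls (3.37 to 5.87). The 20 skeletal muscle markers had a median of -0.62 between the same libraries and did not move as one, since 14 were lower at any fold and 3 higher. They ran from MYL3, a slow-fibre myosin light chain, at -2.95 to MYH1, a fast-fibre myosin heavy chain, at 1.15, with the fast-fibre troponins TNNC2 at 1.00 and TNNI2 at 0.48. COX7A1, the other muscle form, is outside the members and had 210 and 199 counts and a value of -0.045 (-0.33 to 0.24).

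COX4I2, a form of COX4 known from lung and responsive to oxygen, had 89 counts in steers against 73 in bulls and a share of 2.13% and 2.37% of the pair. COX6B2, known from testis, had 11 counts in steers against 1 in bulls, a log2 ratio of 3.34 with an interval of 0.55 to 8.76 and an adjusted p of 0.0275 in the exact binomial test. This call rests on 12 reads and was lost with total counts. COX7A2L, a relative of COX7A2 that joins complexes III and IV into supercomplexes, had 1492 and 1103 counts and was higher at 0.31 (0.20 to 0.43).

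**Figure D3:**
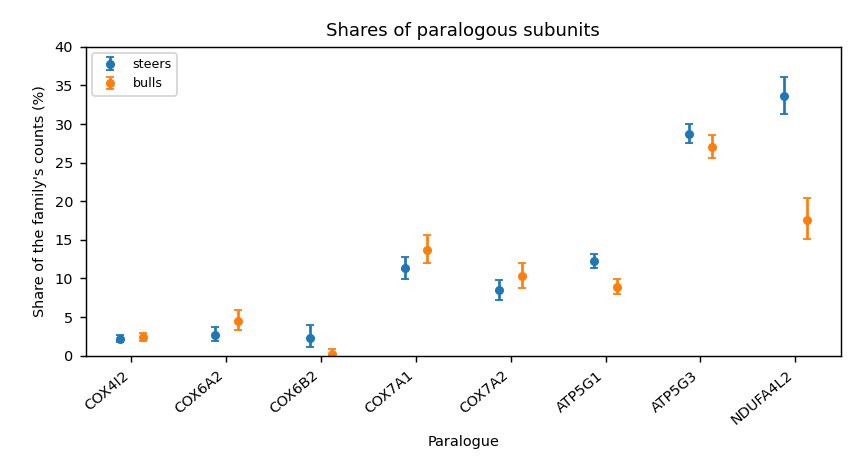
Share of a paralogue in the counts of its family (y axis, percent) in the library of steers and that of bulls, with 95% Clopper-Pearson intervals. NDUFA4L2 took 33.6% of its pair in steers and 17.6% in bulls and ATP5G1 12.2% and 8.92% of its family, and COX6B2 rests on 11 counts and 1 count, while the intervals of COX4I2, COX6A2, COX7A1, COX7A2 and ATP5G3 overlap between the libraries.

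Complex V, the ATP synthase, took more counts than any other complex, 23548 in steers and 17125 in bulls, and stood at 0.34 on the log2 scale by summed counts (interval 0.31 to 0.37). Of its 17 members 16 were above 0, 10 were higher and 0 were lower, and the median was 0.31. The shares over all genes tested were 19.9% higher and 18.3% lower, with 29.3% higher among those with at least 100 counts. The F1 head, where ATP is made, was represented by ATP5B (beta subunit), with 6620 and 4445 counts, a log2 ratio of 0.45 (0.40 to 0.51) and the most counts of all members. ATP5A1 (alpha subunit), which alternates with the beta subunit in the same ring, had 2972 and 2296 counts and a lower value of 0.25 (0.17 to 0.33). In the central stalk ATP5D was at 0.36 with 1852 and 1327 counts and ATP5C1 at 0.15 (0.033 to 0.27) with 1300 and 1076. ATP5E had 83 and 54 counts, and its value of 0.50 had an interval of -0.014 to 1.02.

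The c ring turns as protons pass, and its subunit is encoded by 3 genes whose mature proteins are the same. All 3 were higher in steers. ATP5G1 had 621 counts in steers against 309 in bulls, a log2 ratio of 0.88 (interval 0.69 to 1.09), the highest of the complex. ATP5G3 had 1458 and 938 counts and was at 0.51 (0.39 to 0.63), and ATP5G2 had 2996 and 2216 counts and was at 0.31 (0.23 to 0.39). The share of ATP5G1 in the family was 12.2% in steers (11.3 to 13.2) and 8.92% in bulls (7.99 to 9.92), and that of ATP5G2 was 59.0% (57.7 to 60.4) and 64.0% (62.4 to 65.6).

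The peripheral stalk, which keeps the head from turning along, differed least. Its 4 members ATP5F1, ATP5H, ATP5J and ATP5O had a median of 0.12, and 1 of them, ATP5H, passed the test with 1413 and 1091 counts and a log2 ratio of 0.25 (interval 0.14 to 0.37). ATP5J was at 0.12 (-0.11 to 0.34) with 360 and 305 counts. By summed counts the stalk stood at 0.17 (0.10 to 0.24), below the c ring at 0.43 (0.37 to 0.49) and the F1 head and central stalk at 0.36 (0.32 to 0.40), without overlap of these counting intervals. With total counts the median of the stalk was -0.12. On the main scale the summed counts of all genes tested stood at 0.24, above the stalk. Among the small membrane subunits ATP5I and ATP5J2 were higher, at 0.40 and 0.44, and ATP5L, with 210 and 216 counts, was at -0.16 (-0.44 to 0.12). ATP5S and ATP5SL, which carry the prefix but are not subunits of the enzyme's core, had 84 and 56 and 95 and 83 counts and did not pass.

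Other genes of the pathway were compared in the same way. Of complex II, SDHB and SDHC of the 4 listed genes were analysed, at 0.22 and 0.23, and SDHB passed at any fold with 1421 and 1121 counts. CYCS, cytochrome c, had 28 against 12 counts and a log2 ratio of 1.10 (interval 0.078 to 2.21), which did not pass. The 11 complex I assembly factors counted of 14 had a median of 0.11, with 6 above 0 and 5 below, and 3 were higher at any fold. Among these, NDUFAF4 was called higher at 1.36 (0.58 to 2.20) with 53 and 19 counts, and TMEM126B, of the assembly complex for the membrane arm, at 1.37 (0.52 to 2.29) with 45 and 16 counts. For complex IV the 11 assembly factors counted of 22 had a median of 0.31. Of these 3 were higher at any fold, SURF1, SCO1 and the haem-modifying enzyme COX10. The shares of 3 in 11 for complexes I and IV stand beside 19.9% of all genes tested and 29.3% of those with at least 100 counts. In complex III assembly TTC19 and BCS1L, which inserts the Rieske protein, were higher at 0.45 and 0.54, next to the value of -0.014 for UQCRFS1 given above. LYRM7, a chaperone of the Rieske protein, had 7 against 13 counts and was at -1.02 with an interval of -2.58 to 0.42. The 4 complex V assembly factors and regulators counted of 5 had a median of 0.20, and 0 of them passed at any fold. This list holds USMG5, an older symbol of ATP5MK, which by its current name belongs to complex V and not to assembly. It had 77 counts in steers against 93 in bulls, a log2 ratio of -0.39 (-0.85 to 0.057). Its older symbol lacks the prefix, so it is not among the 17 members of that complex.

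General mitochondrial genes were mostly above 0. All 14 genes of a list for mitochondrial mass were above 0 and 10 were higher at any fold, with a median of 0.29, CS (citrate synthase) at 0.38 and HSPA9, a chaperone of protein import, at 0.63. With total counts the median of this list was 0.046, 9 of its genes lay above 0 and 5 below, and 4 were higher. The 71 mitochondrial ribosomal proteins had a median of 0.27, 29 of them higher and 3 lower, and the 80 cytosolic ribosomal proteins one of 0.24, 67 higher and 2 lower. Of all genes with at least 100 counts 29.3% were higher at any fold. With total counts the medians of the mitochondrial and cytosolic ribosomal proteins were 0.036 and 0.0016. Medians modestly above 0 under median-of-ratios scaling were thus found for the ribosomal proteins of the cytosol as well as for mitochondrial genes.

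Among 14 regulators of mitochondrial biogenesis the median was 0.12, and 5 were higher at any fold and 0 lower. Of all genes tested 19.9% were higher, and 29.3% of those with at least 100 counts, which 12 of the 14 regulators had. With total counts the median of the regulators was -0.12, and 10 of them lay below 0. PPRC1, a coactivator related to PGC-1, had 1059 counts in steers against 546 in bulls, a log2 ratio of 0.83 (interval 0.68 to 0.99). TFB2M, a transcription factor of mitochondrial DNA, had 163 and 76 counts and was at 0.98 (0.58 to 1.39), and its relative TFB1M was at 0.66 with 103 and 60 counts. PPARA was at 0.67 (0.40 to 0.94) with 308 and 178 counts. Of the other regulators, PPARGC1A, ESRRA, NRF1 and GABPA did not pass the test. PPARGC1A, which encodes PGC-1 alpha, had 35 and 45 counts and a value of -0.48 (-1.17 to 0.18), ESRRA was at -0.21 (-0.47 to 0.051), and NRF1 and GABPA, which bind many subunit promoters, were at 0.11 and 0.024 with intervals that hold 0.

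**Figure D4:**
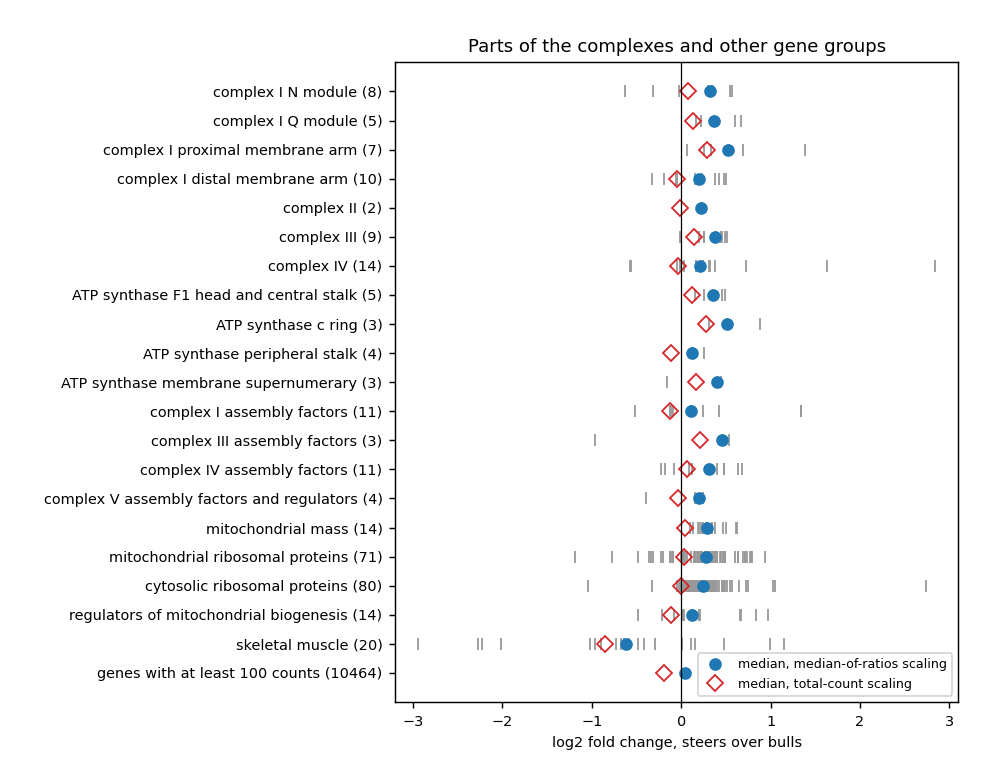
Log2 fold change in steers over bulls (x axis) for parts of the complexes and other gene groups, with the number of genes in parentheses. Grey ticks are single genes under median-of-ratios scaling, filled circles their medians and open diamonds the medians under total-count scaling, which lie 0.24 lower.

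**Figure D5:**
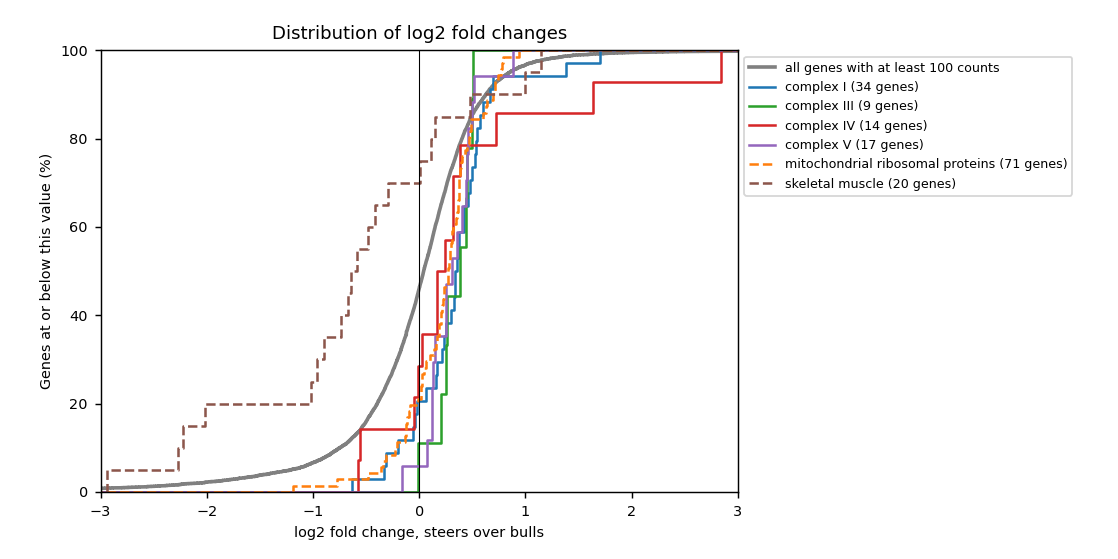
Cumulative share of genes (y axis, percent) at or below a log2 fold change in steers over bulls (x axis) for each complex, 2 other gene groups and all genes with at least 100 counts. The curves of the 4 complexes cross 50% between 0.21 and 0.38, those of mitochondrial ribosomal proteins at 0.27, of skeletal muscle genes at -0.62 and of all such genes at 0.041.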

How the data were processed

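The deposited values are raw read counts per gene symbol. Per the study's methods, the authors cleaned the Ion Proton reads of adaptors, ambiguous bases and low quality and mapped them with MapSplice to a bovine genome build. The submitters' processing notes instead name BWA and a human build, GRCh37.p13, for these samples. Rows such as BOLA-A and C21H14orf2 carry cattle gene names, and the 25444 genes equal the number of transcripts the study annotated. The counts were thus made over cattle genes, but the exact build and the aligner could not be settled. The program that counted them and its handling of strand are not given in the sources used here. Libraries were grouped by the castrated or intact treatment in their labels. The miRNA libraries were not used here.

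Size factors from the median of ratios (1.04 for steers and 0.959 for bulls, numpy 2.4.6) scaled the counts. Pairs of counts were compared by an exact binomial test (2 times the smaller tail, scipy 1.17.1) with Benjamini-Hochberg adjustment across 17752 genes, those counted in at least 1 library, and intervals are 95% Clopper-Pearson intervals. As in the study's criteria, a call needed a change over 2-fold and an adjusted p under 0.05. Log2 fold changes of single genes are ratios of scaled counts, and group medians and quartiles add a prior of 0.5 counts. The test was checked on simulated data with counting error alone. That simulation held no variation between pools and no changes under 2-fold, so it does not speak to the modest differences. Alternatives were other scalings, count minimums, fold thresholds and edgeR 4.0.16 exact tests with assumed variation between pools. The methods of the study use EBSeq, which was not used here.

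The members and gene lists were chosen with earlier results of these data known. Values are given for members called, for the 3 highest, 3 lowest and 2 most counted of each complex among those with at least 100 counts, for core catalytic subunits and for isoform families, and the rest are summarised or shown in the plots. The values of 1 member that enters the counts and medians are not reported here. Single genes of the muscle and fat marker lists and of the assembly factors were named after their values were seen. All 74 member symbols matched RefSeq symbols of cattle (ARS-UCD2.0), 18 of them as older symbols. A further 12 RefSeq symbols under the same prefixes, among them NDUFA1, NDUFAB1, NDUFB11, NDUFS6 and COX7B, are not among the members. Of these ATP5IF1, ATP5MJ and ATP5MK have counts under the older symbols ATPIF1, C21H14orf2 and USMG5. ATPIF1 and USMG5 were taken with the complex V assembly factors and regulators, and the rest were not analysed here. Sequences and transcript lengths were not analysed either, so that levels are not compared between genes.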

Additional observations from a re-analysis of the deposited data

How the results depend on the processing

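With total counts in place of median-of-ratios size factors, the median log2 fold change was 0.088 for all members, 0.11 for complex I, 0.14 for complex III and 0.074 for complex V, and that of complex IV turned to -0.034. The cause of that turn is the common shift of 0.24 that this scaling gives every gene. With edgeR's TMM scaling the median of all members was 0.31. The other medians under TMM and upper-quartile scaling, under a minimum of 100 counts and without the members that are no regular subunits or are muscle forms moved by less than the counting interval. Calls of higher members numbered 44 with no fold threshold, 8 at over 1.5-fold, and 0 in edgeR's exact test under an assumed coefficient of variation of 0.4 between pools. Of all genes, 19.9% were higher with no fold threshold, 9.31% at over 1.5-fold and 0.293% in that exact test at any fold. Calls of lower members were 3 with no fold threshold and 1 at over 1.5-fold, in place of 0, where 18.3% and 12.2% of all genes were lower. The alternatives without COX4NB, with NDUFA4 moved to complex IV and with assumed variation at any fold were chosen after seeing the data. Promoter motifs were not analysed, since no promoter sequences were at hand. No paired analysis was possible because each group has 1 mRNA library, and for the same reason no library could be left out. The main limit is this single pool per group, so that the modest differences cannot be set against the spread between animals.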
